A study of Mus musculus with 2 samples.

Results

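Accessible chromatin was examined at 9 mouse genes that write, copy or remove DNA methylation: Dnmt1, Dnmt3a, Dnmt3b, Dnmt3l, Uhrf1, Tet1, Tet2, Tet3 and Tdg. A peak belonged to a gene when the interval of that protein-coding gene was the nearest one and lay within 100 kb, and 18 of 23364 accessible regions in the 2 libraries were assigned in this way. The data were ATAC-seq peak lists, in which the Tn5 transposase marks open DNA, from bone marrow-derived mast cells. These cells, the IgE-binding granulocytes of tissues, were grown from the marrow of female mice aged 3 to 4 weeks during 4 weeks of culture with interleukin 3, and the labels give over 95% of cells positive for Kit and the IgE receptor. One library came from wild-type littermates and 1 from animals labelled DNMT3A-KO. The labels give neither the engineered allele, nor the cells in which it was deleted, nor the number of animals behind each culture. With 1 library per genotype there was no replicate and no test between genotypes, and the spread between cultures is unknown for every value given. Intervals are 95% intervals for counting error only, and coordinates are 1-based on mm10.

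DNA methylation in mammals sits mostly on the cytosine of CpG pairs. DNMT3A and DNMT3B place new methyl groups, helped in germ cells by DNMT3L, which has no catalytic activity. DNMT1 copies the marks after replication, and UHRF1, which recognises half-methylated DNA, brings it there. TET1, TET2 and TET3 oxidise the methyl group, and the glycosylase TDG removes the later oxidation products so that base excision repair can restore cytosine. DNMT3A and TET2 are both known in blood as regulators of stem cell and myeloid cell function.

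The stretches around the starts of these genes show where the peaks fell, and 8 of 16 promoter windows are printed because they hold the open starts and the contrasting closed ones. Each runs 5′ to 3′ from 150 bases before an annotated start to 25 bases after it (RefSeq, GRCm38.p6), and starts are numbered in the direction of transcription. Capitals mark bases covered by a peak in both libraries.
Tdg start, chr10:82629688-82629862, plus strand: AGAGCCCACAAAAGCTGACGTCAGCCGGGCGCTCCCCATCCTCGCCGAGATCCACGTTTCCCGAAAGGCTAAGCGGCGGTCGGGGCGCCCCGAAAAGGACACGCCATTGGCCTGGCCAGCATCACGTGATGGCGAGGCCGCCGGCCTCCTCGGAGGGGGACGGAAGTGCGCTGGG
Uhrf1 second start, chr17:56304163-56304337, plus strand: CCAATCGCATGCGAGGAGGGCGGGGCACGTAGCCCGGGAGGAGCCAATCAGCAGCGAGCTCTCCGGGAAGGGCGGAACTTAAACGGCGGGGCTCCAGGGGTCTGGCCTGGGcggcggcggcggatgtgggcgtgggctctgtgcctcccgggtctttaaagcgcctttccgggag
Dnmt1 second start, chr9:20952955-20953129, minus strand: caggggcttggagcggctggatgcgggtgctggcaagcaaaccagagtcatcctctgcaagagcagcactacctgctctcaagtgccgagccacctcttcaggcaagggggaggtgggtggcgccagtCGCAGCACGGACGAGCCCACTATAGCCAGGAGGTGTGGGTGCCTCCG
Tet3 start, chr6:83441654-83441828, minus strand: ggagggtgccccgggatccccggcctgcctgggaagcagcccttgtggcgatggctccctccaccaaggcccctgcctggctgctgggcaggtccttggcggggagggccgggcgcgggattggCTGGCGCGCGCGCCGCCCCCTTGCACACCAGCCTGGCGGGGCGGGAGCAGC
Tet2 start, chr3:133544366-133544540, minus strand: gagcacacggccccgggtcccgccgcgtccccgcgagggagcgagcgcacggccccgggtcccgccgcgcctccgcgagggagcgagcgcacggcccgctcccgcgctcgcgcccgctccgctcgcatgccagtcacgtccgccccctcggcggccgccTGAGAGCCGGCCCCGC
Dnmt3a at the third start, chr12:3891594-3891768, plus strand: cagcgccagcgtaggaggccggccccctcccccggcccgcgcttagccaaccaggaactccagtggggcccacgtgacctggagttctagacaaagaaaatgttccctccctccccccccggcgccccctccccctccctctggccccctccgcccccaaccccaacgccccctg
Dnmt3b start, chr2:153649299-153649473, plus strand: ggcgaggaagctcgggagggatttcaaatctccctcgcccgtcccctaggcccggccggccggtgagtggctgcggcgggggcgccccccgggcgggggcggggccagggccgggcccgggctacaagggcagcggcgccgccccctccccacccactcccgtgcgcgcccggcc
Tet1 start, chr10:62887300-62887474, minus strand: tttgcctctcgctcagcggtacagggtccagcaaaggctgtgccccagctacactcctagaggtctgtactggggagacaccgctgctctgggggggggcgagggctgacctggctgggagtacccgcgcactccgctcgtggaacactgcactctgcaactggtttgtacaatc
The whole printed stretch of Tdg was under a peak of both libraries, against 111 of 175 bases at Uhrf1, 51 at Tet3, 47 at Dnmt1 and 16 at Tet2. None of the printed bases of Dnmt3a, Dnmt3b and Tet1 was under a peak of both lists.

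Of the 9 genes, 6 had a peak in each of the 2 lists, and they were the same 6: Dnmt1, Dnmt3a, Uhrf1, Tet2, Tet3 and Tdg. Among all 21631 protein-coding genes 46.4% had a wild-type and 49.6% a knockout peak. The enzyme genes are longer than most, with a median of 52.7 kb against 17.3 kb. Among genes with 0.8 to 1.2 times the length of each, 59.9% (Uhrf1) to 74.2% (Dnmt3a) had a region in either list. The 6 of 9 (66.7%) lie within that range. Both lists assigned 15 peaks to the enzyme genes, and merging them gave 12 regions found in both libraries, 3 in wild type alone and 3 in the knockout alone. The shared regions made up 66.7% (interval 41.0 to 86.7) of the 18, against 55.1% of all regions. Wild-type-only regions made up 16.7% (3.58 to 41.4) against 16.9%, and knockout-only regions 16.7% (3.58 to 41.4) against 28.0%. The 3 intervals include the values over all regions. The unshared regions lay at 3 genes: Dnmt3a had 2 wild-type-only and 1 knockout-only region, Dnmt1 had 1 wild-type-only region and Tet2 had 2 knockout-only regions.

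**Figure D1:**
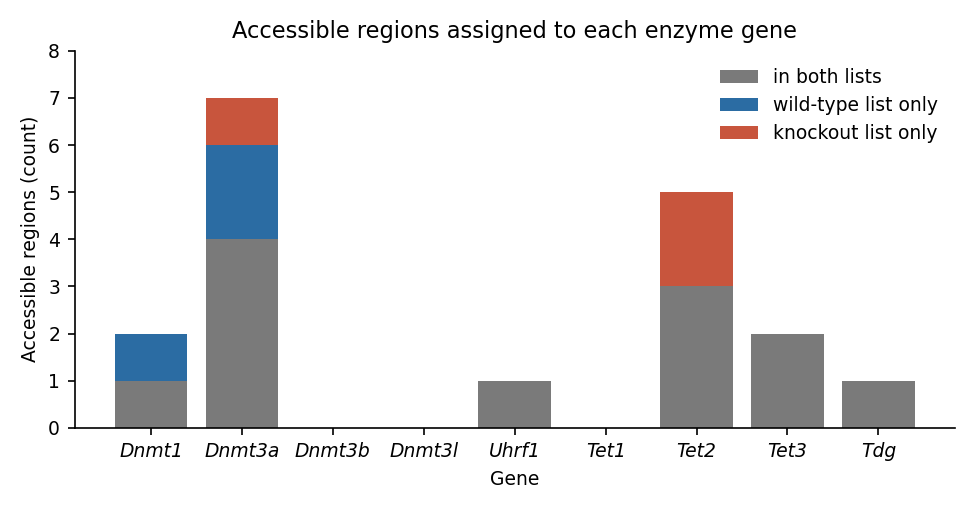
Number of accessible regions assigned to each of the 9 genes, stacked by whether the region was in both peak lists or in 1. Dnmt3a has 7 regions and Tet2 has 5, and Dnmt3b, Dnmt3l and Tet1 have 0.

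The peak lists of the 2 libraries differed in length. There were 17170 wild-type and 19684 knockout peaks, with a median summit pileup, the number of overlapping fragments at the highest point, of 9 in both. Over all shared regions the median was 10 in wild type and 11 in the knockout. Neither list gives a total read count, so the pileups below are not scaled to depth. Regions were assigned to 10 of 11 mast cell marker genes in wild type and to 11 in the knockout. Hdc, the histamine-forming enzyme gene, had none in the wild-type list. The counts were 2 and 3 of 6 for neutrophil, 2 and 2 of 5 for macrophage, 1 and 1 of 4 for T cell and 1 and 2 of 4 for erythroid markers. Over all protein-coding genes 46.4% had a wild-type and 49.6% a knockout peak. Of the neutrophil genes, Elane, Mpo and Camp had no region in either list. S100a9 and Ltf had 1 in each list, and S100a8 had 1 in the knockout list alone. Of the macrophage genes, Marco had 3 wild-type and 5 knockout regions, and Cd68 and Mrc1 had none. Adgre1 had 1 in the wild-type list alone and Csf1r 1 in the knockout list alone. Of the erythroid genes, Gata1 had 1 in each list and Klf1 had 1 in the knockout list alone. Hba-a1 and Epor had none. Of the B cell genes Pax5, Cd79a and Ms4a1, Pax5 had 1 region, in the knockout list alone (−log10 q 11.9), and the others had none.

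Dnmt3a, the gene targeted in the knockout, spans 112.9 kb (chromosome 12, 3801559 to 3914443, plus strand) and had 7 regions, all inside the gene. Among protein-coding genes of all lengths (median 17.3 kb), 302 (1.40%) had 7 or more. This share was not taken among genes of its length. The first region lay 453 bp before the first annotated start (3806393 to 3806572), with a summit pileup of 9 in wild type and 6 in the knockout. The shared region 27.6 kb past that start (3834525 to 3834654) had a pileup of 7 in both, and the one 49.2 kb past it (3856046 to 3856365) 11 and 10. The strongest shared region, 64.2 kb past it (3870942 to 3871300), had 18 and 19. At these 4 places the pileups of the 2 libraries differed by 0 to 3 fragments, less than their counting error.

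The exception inside Dnmt3a was a wild-type region at 3897094 to 3897359, 266 bp wide, 5.46 kb downstream of the third annotated start and 90.2 kb from the first. It had the highest pileup of the enzyme genes, 21 (13.0 to 32.1), and a −log10 q of 21.8 in the authors' list. The nearest knockout peak was 25.8 kb away. Of the 1021 wild-type regions with at least this −log10 q, 1020 were shared with the knockout list, and this was the other one. The local background of this wild-type peak was 0.58, and the 1095 knockout peaks with a background within 0.05 of that had pileups of 7 or more. The knockout background at this site is not given, so the pileup below which a knockout peak would have gone uncalled is not known. Here and below, a similar background means one like that of the library with the peak. The third start itself, printed above, was under no peak in either library. From the last shared region to the end of the gene, 43.1 kb, this was the single peak of the wild-type list, and the knockout list had 0. Beyond the gene both libraries had the same next region, 67.0 kb past its end. Since the labels do not describe the allele, a deleted sequence and closed chromatin at this place cannot be told apart.

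The other 2 unshared regions of Dnmt3a were weaker. The wild-type-only one, 61.8 kb past the first start (3868718 to 3868880), had a pileup of 12 (6.20 to 21.0) and lay 2.06 kb from the nearest knockout peak. Knockout peaks over a similar background had pileups from 7, a value within that interval. The knockout-only one, 16.7 kb past the first start (3823626 to 3823725), had a pileup of 7 (2.81 to 14.4), and wild-type peaks over a similar background had pileups from 3. That 3 is the lowest pileup of the whole wild-type list, and whether either site lay just below calling in the other library was not tested. In the 1 Mb on each side of the gene both sides gave 8 shared regions, 2 of wild type alone and 5 of the knockout alone.

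**Figure D2:**
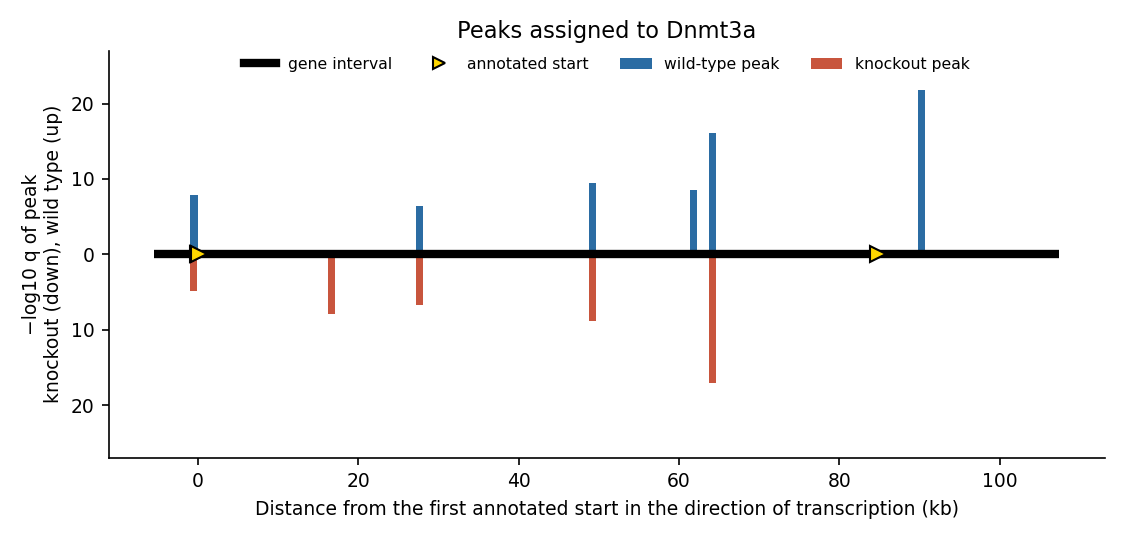
Peaks assigned to Dnmt3a by distance from its first annotated start in kb, with the −log10 q of each peak in the authors' lists drawn upward for wild type and downward for knockout. Bar width is not to scale. Bars pair at 4 places, and the tall wild-type bar at 90.2 kb has no knockout bar beneath it.

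Other genes had the same numbers of regions as Dnmt3a. Exactly these counts (4 in both lists, 2 and 1 in wild type and knockout alone) were found at 6 genes, of which Nfatc2, Pfkfb3 and St3gal2 were nearest to it in length (125.2, 82.6 and 54.3 kb). In these 3 the highest −log10 q of a wild-type-only region was 9.95, 8.30 and 8.84, against 21.8 in Dnmt3a.

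The second de novo enzyme gene and the cofactor gene had no region. Dnmt3b (chromosome 2, 153649411 to 153687730) lay 16.6 kb from the nearest wild-type peak, assigned to Commd7, and 36.8 kb from the nearest knockout peak, assigned to Mapre1. Dnmt3l (chromosome 10, 78042287 to 78063622) lay 6.17 and 6.20 kb from a peak of the 2 libraries, both assigned to the neighbouring immune ligand gene Icosl. Of protein-coding genes with 0.8 to 1.2 times the length of Dnmt3b, 67.7% had a region, and of those like Dnmt3l in length 61.7%. A gene without a peak is one without a call at this depth, and its expression was not measured.

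The maintenance genes were open in both genotypes. Dnmt1 (chromosome 9, 20907206 to 20959888, minus strand) has 3 annotated starts, and its shared region (20952792 to 20953009) covered the second. The summit lay 55 bp past that start in wild type and 91 bp past it in the knockout, with pileups of 7 (2.81 to 14.4) and 12 (6.20 to 21.0). The knockout peak was 218 bp wide and the wild-type peak 115 bp. The wider knockout peak reached 82 bases into the window of the third start, where the wild-type list covered 0. Dnmt1 also had a wild-type-only region 1.81 kb before its first start (20961626 to 20961794) with a pileup of 6 (2.20 to 13.1), where knockout peaks over a similar background had pileups from 3. Uhrf1 (chromosome 17, 56303337 to 56323486, plus strand) had 1 region, shared, at its second start (56304129 to 56304300), with a pileup of 9 in both libraries and widths of 117 and 172 bp.

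The TET genes differed from one another. Tet1 (chromosome 10, 62804570 to 62887469) had no region, and the nearest peaks lay 12.0 kb away in both libraries and were assigned to Ccar1. Of genes near it in length, 71.7% had one. Tet3 (chromosome 6, 83362373 to 83457208, minus strand) had 2 regions, both shared. The one at its start (83441564 to 83441761) had a pileup of 7 in both libraries and widths of 100 and 198 bp in wild type and knockout. With genes of all types included, this region also overlapped B230319C09Rik, and the Tet3 interval reached 15.4 kb beyond it. The other region of Tet3, 59.8 kb past that start (83381812 to 83381992), had pileups of 10 and 9.

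Tet2 (chromosome 3, 133463677 to 133545136, minus strand) had 5 regions, and both of its unshared ones were in the knockout list. The shared region at its start (133544274 to 133544397) had pileups of 9 and 8, and the shared region 2.07 kb into the gene (133542224 to 133542361) 8 (3.45 to 15.8) and 11 (5.49 to 19.7). The knockout-only region 13.5 kb into the gene (133530817 to 133530931) had a pileup of 5 (1.62 to 11.7), and 81.9% of knockout peaks had a higher −log10 q. The other knockout-only region lay 39.0 kb before the start (133583273 to 133583377) with a pileup of 6 (2.20 to 13.1). Wild-type peaks over a similar background had pileups from 3, a value within both intervals. Among all knockout regions at least as strong as these, 73.0% and 82.3% were shared, shares that include the strongest regions. Of the 5615 knockout regions with a −log10 q from 5 to below 7.5, the range of both, 41.7% were shared. Knockout regions of this strength without a partner were thus common in the whole list. A strong shared region lay 79.2 kb before the start (133623437 to 133623663), with pileups of 15 and 14. With genes of all types included, the 2 distant regions were nearest to Gm49316 (3.29 kb) and Gm40153 (22.0 kb) and not to Tet2.

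**Figure D3:**
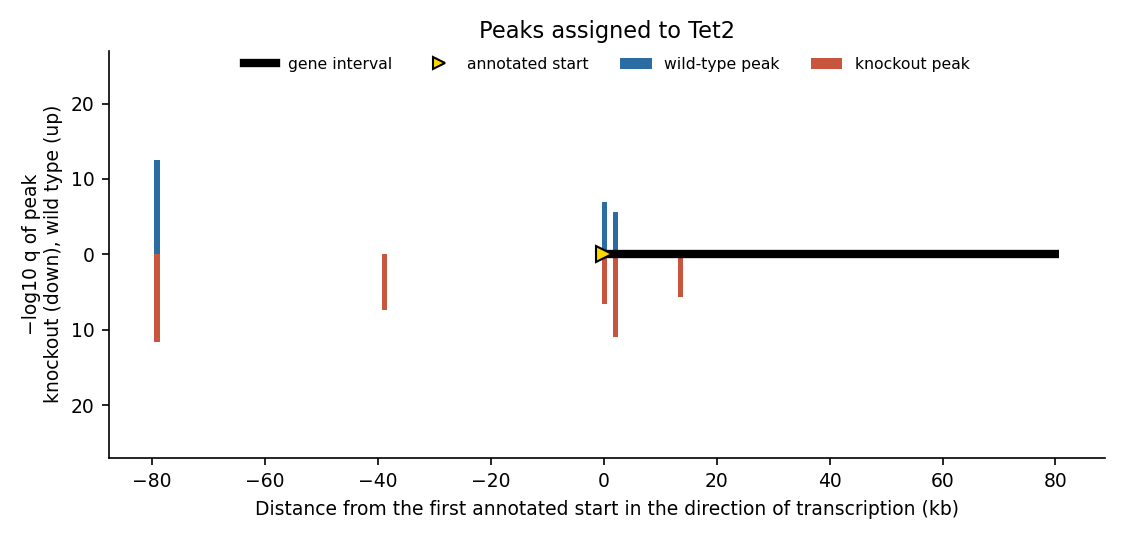
Peaks assigned to Tet2 by distance from its annotated start in kb, in the direction of transcription, with the −log10 q of each peak in the authors' lists drawn upward for wild type and downward for knockout. Bar width is not to scale. Bars pair at the start, 2.07 kb into the gene and 79.2 kb before it, and 2 knockout bars stand alone.

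Tdg, the glycosylase gene (chromosome 10, 82629814 to 82650799, plus strand), had 1 region, and it was shared over its start (82629664 to 82629894). Both peaks began at the same base, and their widths were 231 and 219 bp. Their summits lay 50 and 26 bp before the start, with pileups of 13 (6.92 to 22.2) and 12 (6.20 to 21.0).

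**Figure D4:**
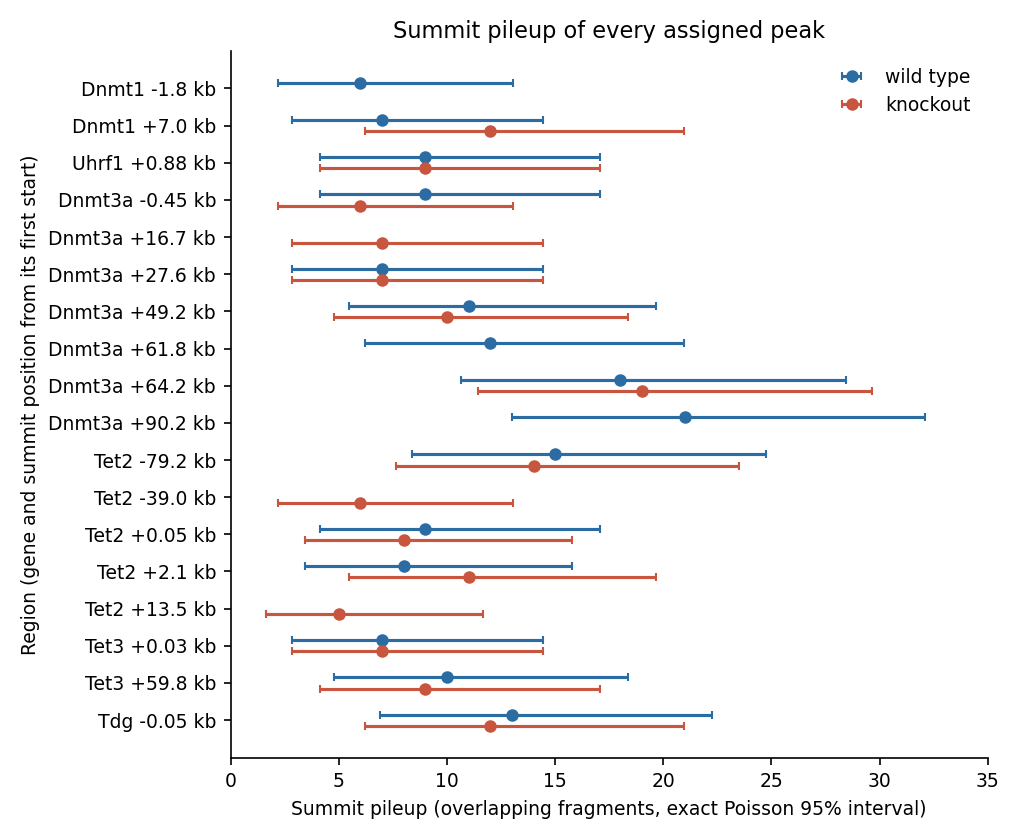
Summit pileup in overlapping fragments of every peak assigned to the 9 genes, with exact Poisson 95% intervals; each row is a region, named by its gene and its summit's distance from the first annotated start. Wild-type and knockout intervals overlap in all 12 shared regions, and the highest value, 21, is the wild-type-only region of Dnmt3a.

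Each of the 6 genes with a peak had a shared region within 1 kb of one of its own starts, and 0 of the 6 unshared regions lay there. For Dnmt3a this rests on a weak knockout peak (−log10 q 4.91): with a −log10 q of at least 5, or with equal numbers of peaks, its start region was wild-type-only, which leaves 5 of 6 genes and 1 unshared region at a start. Among all genes with a region and a promoter window, 54.6% had a shared region at an own start. Among all unshared regions of such genes 29.2% lay within 1 kb of an own start, as did 31.7% of the wild-type-only and 27.7% of the knockout-only ones. By either end of the gene interval, 3 of 18 regions (16.7%, interval 3.58 to 41.4) lay within 1 kb, against 35.4% of all regions. The 2 measures part because the intervals of Dnmt1, Dnmt3a and Tet3 reach beyond the starts that had a shared region within 1 kb. Of the 16 promoter windows of the 9 genes (250 bases before to 50 after a start), 5 were overlapped by a wild-type and 6 by a knockout peak, against 28.2% and 30.0% of 21045 windows.

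Shared regions were compared by position and width. The summits of the 12 shared regions were 7 to 89 bp apart, with a median of 19 bp, against 29 bp over all shared regions. In 11 of 12 they were within 50 bp, against 73.6% of all. The pair 89 bp apart was the one before the first start of Dnmt3a. The knockout peak was wider in 8 regions and the wild-type peak in 4, with a median difference of 9 bp, which is also the median over all shared regions, where 56.4% were wider in the knockout list. The largest differences were at the starts of Dnmt1 (103 bp) and Tet3 (98 bp), then at the region of Dnmt3a 49.2 kb past its first start (59 bp) and at Uhrf1 (55 bp), all wider in the knockout list. At the starts of Tdg and Tet2 the wild-type peak was wider, by 12 and 8 bp. Over all peaks of the enzyme genes the median width was 163 bp in wild type and 151 bp in the knockout, against 150 and 154 bp over both whole lists. Pileup was higher in the wild-type library in 6 shared regions, higher in the knockout library in 3 and equal in 3, and in 0 of the 12 were the counting intervals apart. Over all shared regions the pileup was higher in the wild-type library in 32.8%, higher in the knockout library in 54.8% and equal in 12.4%.

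**Figure D5:**
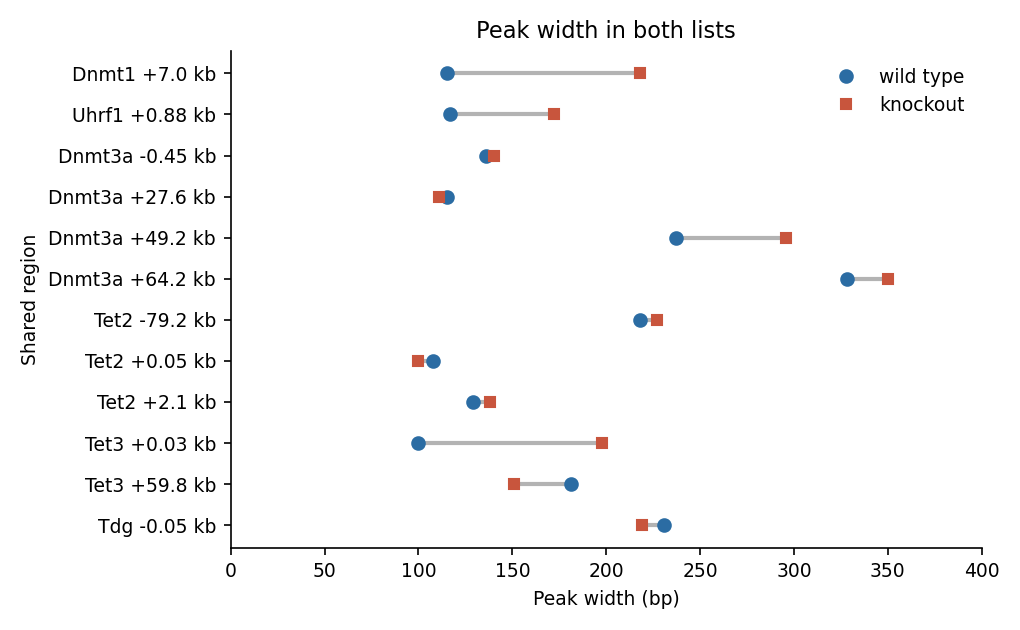
Width in bp of the wild-type (circle) and knockout (square) peak at the 12 shared regions, each named by its gene and its summit's distance from the first annotated start. The longest lines are those of Dnmt1 and Tet3, where the knockout peaks are 103 and 98 bp wider.

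The open starts differed in CpG content. CpG pairs numbered 57 in the 300-base window of Tet2, 33 at the second start of Uhrf1, 26 at Tdg, 22 at Tet3 and 12 at the second start of Dnmt1, against a median of 23 in windows under a peak of both lists and 6 in windows under none. Windows under no peak held 30 at Dnmt3b, 18 at the third start of Dnmt3a and 17 at Tet1, and the 3 windows of Dnmt3l held 6, 4 and 3. The first 2 windows of Dnmt3a, also under no peak, held 46 and 47, and their starts lay 408 to 628 bp from the peaks of the shared region. Of 11 short motifs sought on both strands, the GC box GGGCGG was in 12 of the 16 windows. It was in 46.7% of all windows and in 75.0% of those under a peak of both lists. Of the 5 windows of these genes under a peak of both lists, 3 held it. The windows without it were those of Tdg, the first and second starts of Dnmt1 and the third of Dnmt3l. The CCAAT box was in 6 of 16, against 38.5% of all and 48.5% of those under a peak of both lists. TGACGTCA, a cyclic AMP response element, was in the window of Tdg, against 2.26% of all. It can be read in the printed stretch, which also holds the E-box CACGTG (7.91% of all). GCGCATGCG, which NRF1 binds, was in the windows of the second start and the third start of Dnmt1 (2.37% of all), and TTTGGCGC, an E2F motif, in the latter (0.641%). CACGTG was also at the third start of Dnmt3a and the second of Dnmt3l, CATGTG (11.6%) at the second of Dnmt1 and TGTGGT (14.7%), a RUNX motif, at the first of Uhrf1. GATAA (22.5%), CCGGAAGT (5.20%) and TGANTCA (7.04%), motifs of GATA, ETS and AP-1 factors, were in 0 of 16. In windows under a peak of both lists their shares were 13.4%, 10.8% and 3.95%. A match describes letters only, and some motifs read the same on both strands.

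Most of a wider set of methylation genes also had an assigned region. It comprised 35 genes for methyl-CpG readers, base excision repair, methyl donor metabolism and cofactors of the enzymes, of which 25 (71.4%) had a wild-type region and 25 a knockout region, against 46.4% and 49.6% of all protein-coding genes. Their 45 regions were 30 shared (66.7%, interval 51.0 to 80.0), 7 wild-type-only and 8 knockout-only. The interval includes the 55.1% shared among all regions. Cxxc5, which encodes a protein binding unmethylated CpG, had 2 regions in both lists, 1 in wild type alone and 3 in the knockout alone. Gadd45g, a stress response gene linked to demethylation, had 0, 1 and 2 in the same order, Ahcy, whose enzyme clears the by-product of methylation, 1, 1 and 1, Parp1, a DNA repair gene, 2, 1 and 0, and Zbtb38, a methyl-CpG reader gene, 2, 0 and 1. The 11 histone deacetylase genes, another family of chromatin enzymes, had 26 regions, of which 11 were shared (42.3%, interval 23.4 to 63.1), 7 wild-type-only and 8 knockout-only. This interval also includes 55.1% and overlaps that of the enzyme genes (41.0 to 86.7), and the difference was not tested.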

How the data were processed

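The deposited data were 1 peak list per library. The submitters' processing notes name mm10 and GRCm38 with the tools MACS2, Bowtie2 and Trimmomatic. Their settings, versions and whether reads were shifted to Tn5 cut sites: not given in the sources used here. Per the labels, 50 bp single reads were sequenced to a stated depth of 10 M. The authors deposited for each peak a score (10 times the −log10 q), a fold enrichment over local background, −log10 p-value, −log10 q-value and a summit offset. They serve here to describe peaks of 1 list.

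From fold and −log10 p, a whole-number summit pileup with its local background was solved for 100% of peaks (to within 0.001), taking the fold with a pseudocount of 1. Pileups have exact Poisson and shares exact (Clopper-Pearson) binomial intervals. Peaks sharing at least 1 bp were merged. Genes came from a RefSeq table of GRCm38.p6 without exons, so exons and introns are not resolved. A region equally near to several genes counted for each. Starts and sequences came from RefSeq promoter windows, which matched all 9 genes. Windows on chromosome 18 were not used. The code was tested on simulated peaks. Python 3.11.15, NumPy 2.4.6, pandas 2.3.3, SciPy 1.17.1 and matplotlib 3.10.9 were used.

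The enzyme genes and lists were chosen with earlier results of these data known. One B cell marker is not reported here. Genes named beyond them were the 5 of the wider list with the most unshared regions and the 3 nearest to Dnmt3a in region counts, ties going to gene length. The alternatives tried were summits within 200 bp or 50% reciprocal overlap as the criterion for sharing, peaks with −log10 q from 5, lists of equal length, genes of all types, gene bodies with 10 kb, and gene ends within 2.5 kb.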

Additional observations from a re-analysis of the deposited data

How the results depend on the processing

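No paired analysis was possible because there was 1 library per genotype. None of the 46 recomputed values left its range, which was 1.5 times for counts and the binomial interval for medians, and these wide ranges follow from small numbers. Shared regions numbered 11 to 15, wild-type-only regions 3 to 4 and knockout-only regions 2 to 3 over the alternatives. The region before the first start of Dnmt3a became wild-type-only with a −log10 q of at least 5 and with equal numbers of peaks, because its knockout peak (4.91) was removed. The 2 distant regions of Tet2 were lost with gene bodies and 10 kb and with genes of all types. The wild-type-only region of Dnmt3a with a pileup of 21 kept its class in every alternative run. For the other 5 unshared regions the pileup interval includes the lowest pileup called over a similar background in the other list. The background matched was that of the library with the peak, since that of the other library at the site is not given. For 4 of them that value is 3, the lowest of the whole list, which the interval of any pileup up to 7 includes. The part of depth in these 5 was not tested, since no total read count is given.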

Other observations

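Shared regions also flanked 4 of the enzyme genes within 10 kb but were nearer to another gene. One lay 2.10 kb beyond Uhrf1 (chromosome 17, 56325586 to 56326057) and overlapped Kdm4b, a histone demethylase gene. Its pileups of 30 and 32 in the wild-type and knockout libraries were above every peak assigned to the enzyme genes. A region 9.48 kb before Dnmt3a (chromosome 12, 3791863 to 3792074), nearest to Dtnb, had a pileup of 14 in both libraries. The region before the first start of Dnmt3a had 9 in wild type and 6 in the knockout. A region inside Icosl lay 6.17 kb from Dnmt3l (chromosome 10, 78069794 to 78070016, pileups of 11 and 10). One inside S1pr2 lay 7.43 kb from Dnmt1 (chromosome 9, 20967321 to 20967473, pileups of 4 and 6).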
